A study of Mus musculus with 4 samples.

Results

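Aminoacyl-tRNA synthetases join each amino acid to its transfer RNA, and this account describes their genes in N9 cells exposed to nimodipine. The rule named 36 genes, 20 for enzymes of the cytosol and 16 for enzymes of mitochondria (symbols that end in 2), and took the probe sets that the array annotation assigns to that symbol alone. It found 34 of them, 18 cytosolic and 16 mitochondrial, among 22180 measured genes. Aars shares its only listed probe set with Exosc6 and Dars had no listed probe set, so neither has a value here. N9 is an immortalised line of mouse microglia, and nimodipine belongs to the dihydropyridines, drugs that block calcium channels of the L type. The cells had received 10 µM nimodipine (1 array), 20 µM nimodipine (1 array) or vehicle (2 arrays), and no other genotype or agent is labelled. Which vehicle array goes with which dose is not labelled, nor is it labelled that the arrays stand for separate cultures. The p-values therefore reflect spread among these arrays alone, and that spread may be technical.

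Each dose had 1 array, so an effect of the dose and a peculiarity of that culture or array cannot be told apart. All values below are the deposited log2 expression values, and every difference is on that log2 scale and is taken from the mean of both vehicle arrays unless stated. The 10 µM array stood apart over the whole table, with 114 genes at least 1 above the vehicle mean (0.514%) and 234 at least 1 below it (1.06%), where the 20 µM array had 8 (0.0361%) and 11 (0.0496%). Its part in the results on synthetases was not tested. Of 10 microglial markers, 8 reached the overall median of 5.04 on every array, and P2ry12 and Tmem119 lay below it on every array. The summed log2 level of these 10 markers was 84.8 at 10 µM and 86.9 at 20 µM, against 86.8 and 87.1 on the vehicle arrays. The overall median was also reached on every array by 2 of 4 astrocyte and 2 of 4 neuron markers. The same held for 2 of 3 oligodendrocyte markers and 1 of 4 of fibroblasts or endothelium. Markers of these other cell types stood at 7.70 or lower on every array. Mbp, of oligodendrocytes, lay above the microglial Aif1 and Cx3cr1 on every array. All 34 synthetase genes had a mean at or above that median.

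Cells keep largely separate sets of synthetases for the cytosol and for mitochondria, all encoded in the nucleus. A shortage of charged tRNA, like stress of the endoplasmic reticulum, leads to phosphorylation of the initiation factor eIF2, which slows protein synthesis in general and favours translation of the transcription factor ATF4. Genes of many cytosolic synthetases are known targets of ATF4 in mammalian cells. Several mitochondrial synthetases are studied mainly because inherited defects in them impair the organelle's own protein synthesis.

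At 10 µM nimodipine the cytosolic synthetase genes lay mostly above vehicle and the mitochondrial ones mostly at or below it. Of the 18 cytosolic genes 15 were higher and 3 lower than the vehicle mean, with a median difference of 0.42. Of the 16 mitochondrial genes 7 were higher and 9 lower, and their median was -0.16. The 10 µM value lay above both vehicle arrays for 15 cytosolic and 4 mitochondrial genes, beside 39.1% of all genes, and below both for 3 and 9, beside 35.4%. Of all genes, 52.4% stood higher and 47.6% lower (median 0.01). A difference of 0.5 or more upward was found for 8 cytosolic and 0 mitochondrial genes, beside 3.92% of all genes, and one of that size downward for 0 cytosolic and 3 mitochondrial genes, beside 6.18%. This threshold was chosen after seeing the data; at 1 or more, only Wars was past it. The highest mitochondrial difference, that of Tars2, was exceeded by 12 of the 18 cytosolic genes. The difference between the medians of the classes was 0.58 at 10 µM and 0.08 at 20 µM, while vehicle 2 minus vehicle 1 gave 0.02. The classes also differed in level. Vehicle means ran from 7.73 (Farsa) to 11.07 (Sars) in the cytosolic class and from 6.03 (Pars2) to 9.25 (Tars2) in the mitochondrial class. The part of level in the class difference was not tested.

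limma was fitted to all 4 arrays as 3 groups, which takes the spread from the vehicle pair alone (1 residual df) and assumes that a lone array varies like them. At 10 µM it called 3 synthetases of 34 at an adjusted p under 0.05, beside 1.59% of all genes. Wars and Yars rose and Pars2 fell. The upward calls compare with 0.509% of all genes called higher, and the downward call with 1.08% called lower. At an unadjusted p under 0.05 stood 12 cytosolic genes on the high side, 1 cytosolic gene (Qars) on the low side and 4 mitochondrial genes on the low side, together 17 of 34 beside 16.9% of all genes. With dim probe sets left out, 10 of 34 were called, beside 10.0% of the genes then tested.

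**Figure D1:**
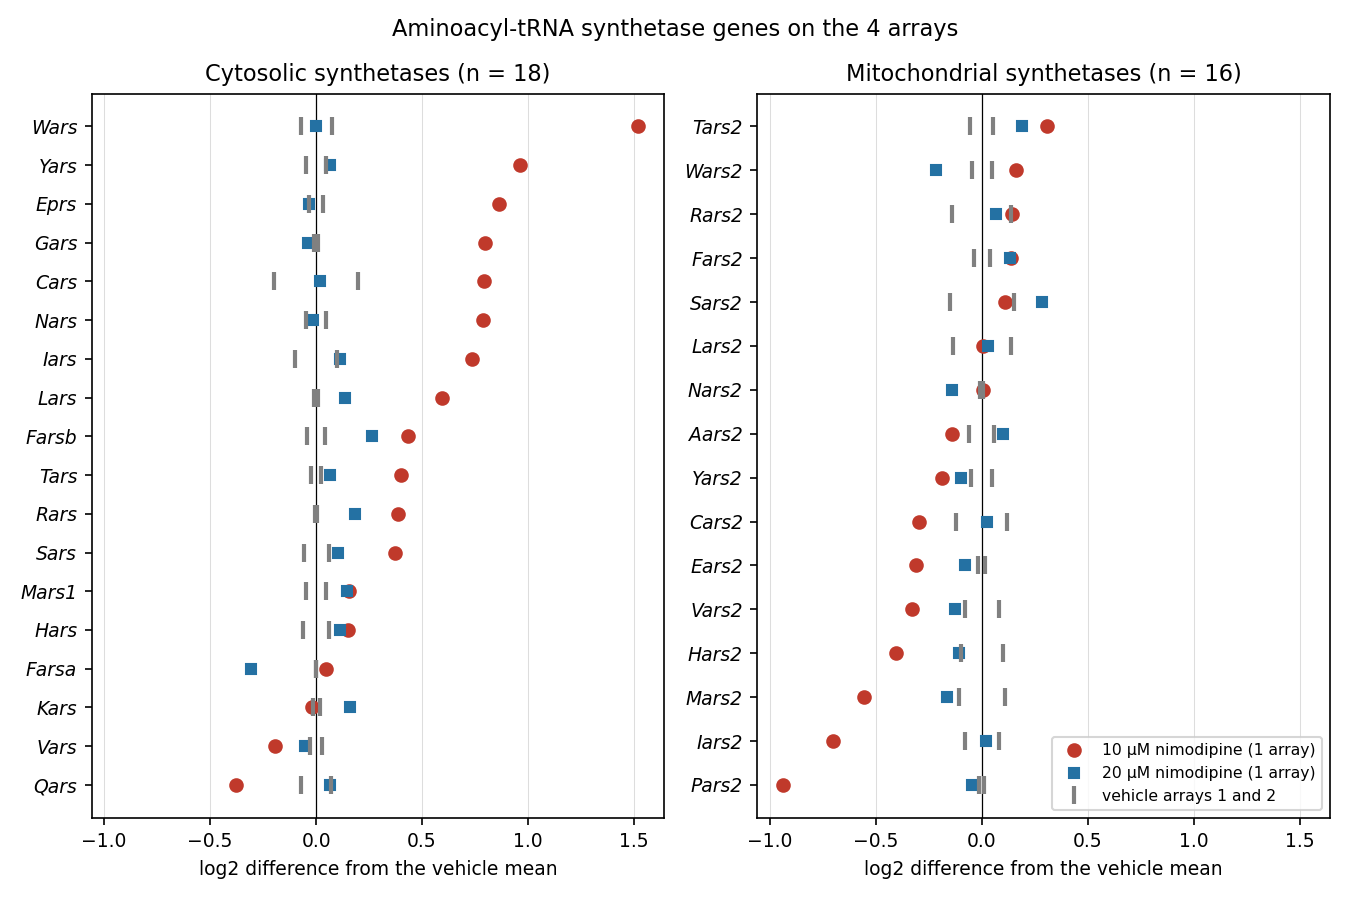
Log2 difference from the vehicle mean (horizontal axis) for the 18 cytosolic (left) and 16 mitochondrial (right) synthetase genes, with 1 point for the 10 µM array, 1 for the 20 µM array, and a tick for each vehicle array. At 10 µM the cytosolic genes run from 1.52 (Wars) to -0.38 (Qars) and the mitochondrial genes from 0.31 (Tars2) to -0.94 (Pars2), while the 20 µM points of both classes stay between -0.31 and 0.28.

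Wars, which charges tRNA with tryptophan and is also known as an interferon-inducible gene, stood at 11.02 at 10 µM and 9.50 at 20 µM, against 9.43 and 9.57 in vehicle. The 10 µM array was far above the other arrays, which did not separate. The difference at 10 µM was 1.52 ± 0.15 (limma SE, 1 array against 2), a 2.87-fold increase (adjusted p = 0.0209), and it ranked 35 from the top of 22180 genes. Yars, the enzyme for tyrosine, stood at 10.35 at 10 µM and 9.46 at 20 µM, against 9.44 and 9.34 in vehicle. It was 0.96 ± 0.15 higher at 10 µM, or 1.95-fold (limma adjusted p = 0.0477), and at 20 µM its difference was 0.07.

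Eprs encodes a single protein that charges both glutamate and proline and belongs to the multi-synthetase complex. Its values were 11.22 at 10 µM and 10.33 at 20 µM, against 10.33 and 10.39 in vehicle, a difference of 0.86 ± 0.15 at 10 µM that missed the threshold (limma adjusted p = 0.0574). Gars, the glycine enzyme, which serves mitochondria as well as the cytosol from the same gene, stood at 11.57 at 10 µM and 10.74 at 20 µM, against 10.79 and 10.77 in vehicle. Nars, the asparagine enzyme, stood at 11.42 at 10 µM and 10.62 at 20 µM, against 10.68 and 10.59 in vehicle. In each of these genes the 10 µM array lay above the other arrays by far more than those differed among themselves, and the 20 µM array lay within 0.04 of the vehicle mean. At 10 µM Gars differed by 0.79 and Nars by 0.79 (limma adjusted p = 0.0678 and 0.0733).

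Cars, for cysteine, stood at 8.98 at 10 µM and 8.21 at 20 µM, against 8.39 and 7.99 in vehicle. Its difference of 0.79 ± 0.20 at 10 µM was as large as that of Gars, but its vehicle arrays were the furthest apart of all 34 genes (vehicle 2 minus vehicle 1, -0.40), and the limma adjusted p was 0.139. Iars, for isoleucine, stood at 11.19 at 10 µM and 10.57 at 20 µM, against 10.55 and 10.35 in vehicle. Lars charges leucine and is known as a leucine sensor of the mTORC1 pathway; it stood at 10.08 at 10 µM and 9.62 at 20 µM, against 9.49 and 9.48 in vehicle. Iars and Lars were 0.73 and 0.59 above vehicle at 10 µM (limma adjusted p = 0.103 and 0.127). Both also lay above both vehicle arrays at 20 µM, by much less.

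**Figure D2:**
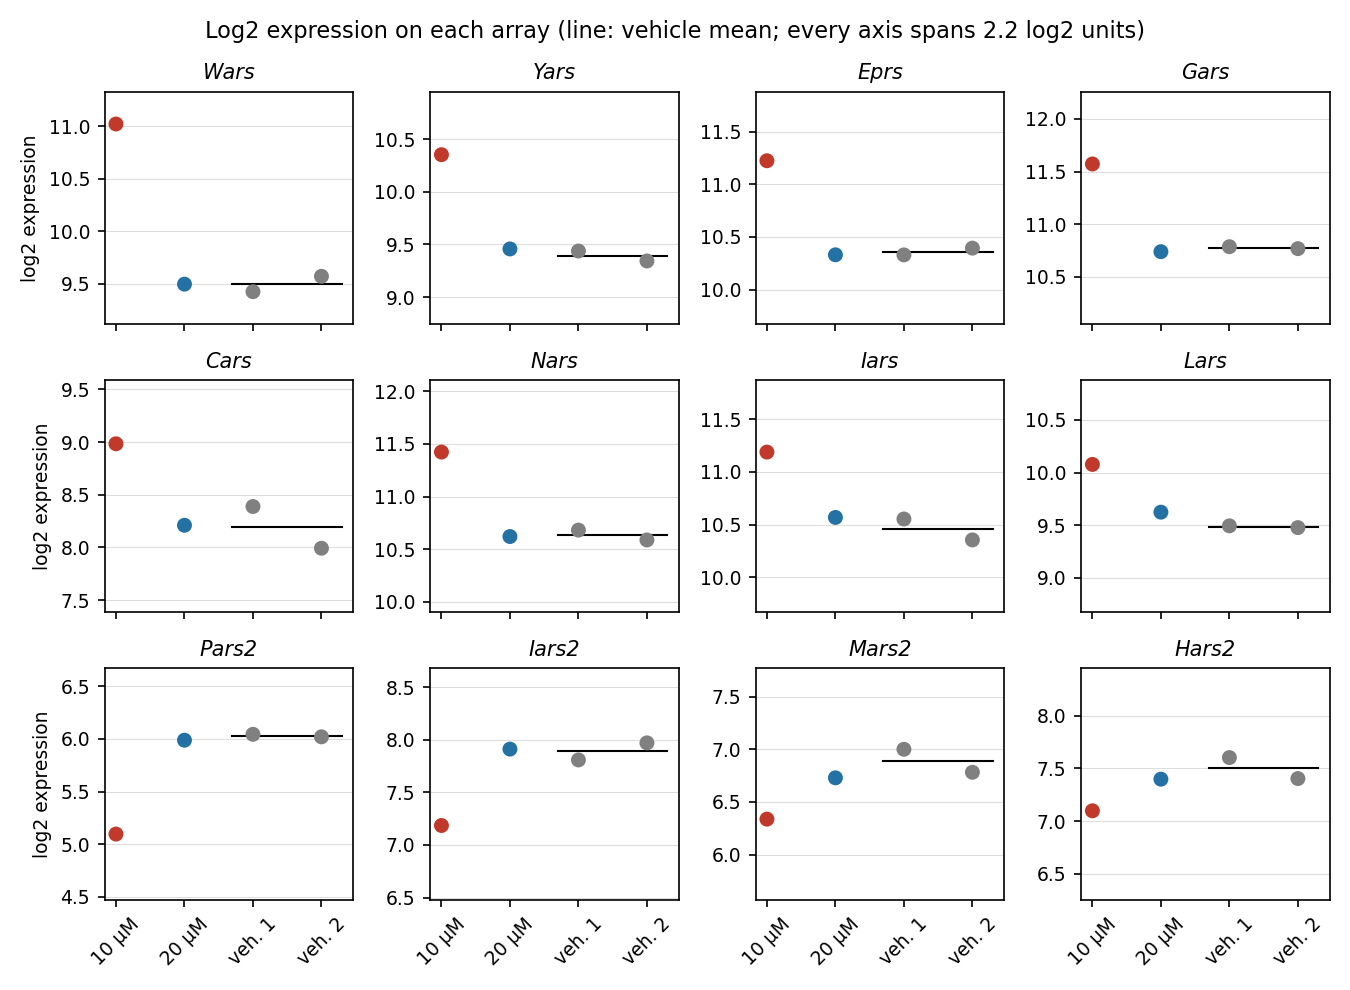
Log2 expression (vertical axes, all of equal span) of 8 cytosolic genes and, in the bottom row, 4 mitochondrial genes on the 10 µM, 20 µM and both vehicle arrays, with a line at the vehicle mean. The genes drawn are those with the largest rise (cytosolic) and the largest fall (mitochondrial) at 10 µM. With that choice the 10 µM point is the highest in every cytosolic panel and the lowest in every mitochondrial panel. Wars stands at 11.02 and Pars2 at 5.10 there, while the 20 µM points lie close to vehicle. Of all measured members, 3 of 18 cytosolic genes were lower and 7 of 16 mitochondrial genes higher than vehicle at 10 µM.

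ATF4 acts together with C/EBP family proteins on a composite element whose letters are TGATGNAAN. The promoters below show where these letters occur in the cytosolic genes with the largest differences at 10 µM that the sequence table held (Yars, Eprs, Gars and Iars), in Tars, which also has a match, and in Iars2, whose difference was the second largest of the mitochondrial genes after that of Pars2. Each runs from 250 bases before to 50 bases after the start of a RefSeq transcript (GRCm38.p6), 5′ to 3′ on the strand of the gene. Capitals mark a match to the element on either strand.
Yars (chr4:129189653-129189952, plus strand): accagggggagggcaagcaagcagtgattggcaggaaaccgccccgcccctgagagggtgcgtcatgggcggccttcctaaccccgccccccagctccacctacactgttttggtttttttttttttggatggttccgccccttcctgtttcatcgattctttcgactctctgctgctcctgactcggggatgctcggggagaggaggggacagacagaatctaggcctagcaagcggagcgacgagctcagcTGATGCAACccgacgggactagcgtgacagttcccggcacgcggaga
Eprs (chr1:185362794-185363093, plus strand): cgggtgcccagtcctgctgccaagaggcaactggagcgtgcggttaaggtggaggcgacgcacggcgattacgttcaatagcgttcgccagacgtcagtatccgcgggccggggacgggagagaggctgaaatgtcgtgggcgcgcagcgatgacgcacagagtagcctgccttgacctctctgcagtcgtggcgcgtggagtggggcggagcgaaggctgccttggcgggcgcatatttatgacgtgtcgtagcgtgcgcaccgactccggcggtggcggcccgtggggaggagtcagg
Gars (chr6:55037751-55038050, plus strand): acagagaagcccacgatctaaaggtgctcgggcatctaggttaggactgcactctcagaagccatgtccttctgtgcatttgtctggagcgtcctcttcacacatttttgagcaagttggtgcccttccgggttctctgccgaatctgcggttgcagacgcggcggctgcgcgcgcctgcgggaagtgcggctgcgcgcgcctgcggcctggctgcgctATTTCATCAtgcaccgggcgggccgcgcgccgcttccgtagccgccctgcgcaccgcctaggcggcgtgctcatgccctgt
Iars (chr13:49681880-49682179, plus strand): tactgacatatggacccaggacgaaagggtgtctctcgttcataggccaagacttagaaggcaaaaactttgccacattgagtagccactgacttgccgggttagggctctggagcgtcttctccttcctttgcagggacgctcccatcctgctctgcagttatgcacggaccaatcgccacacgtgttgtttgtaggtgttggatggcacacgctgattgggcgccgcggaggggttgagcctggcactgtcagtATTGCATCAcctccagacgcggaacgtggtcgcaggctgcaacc
Tars (chr15:11399609-11399908, minus strand): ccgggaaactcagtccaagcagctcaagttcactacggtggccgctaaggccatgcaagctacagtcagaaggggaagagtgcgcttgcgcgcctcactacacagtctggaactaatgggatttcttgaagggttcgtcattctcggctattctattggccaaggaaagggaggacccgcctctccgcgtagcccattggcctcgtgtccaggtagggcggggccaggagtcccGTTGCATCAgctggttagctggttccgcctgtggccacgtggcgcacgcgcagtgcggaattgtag
Iars2 (chr1:185329352-185329651, minus strand): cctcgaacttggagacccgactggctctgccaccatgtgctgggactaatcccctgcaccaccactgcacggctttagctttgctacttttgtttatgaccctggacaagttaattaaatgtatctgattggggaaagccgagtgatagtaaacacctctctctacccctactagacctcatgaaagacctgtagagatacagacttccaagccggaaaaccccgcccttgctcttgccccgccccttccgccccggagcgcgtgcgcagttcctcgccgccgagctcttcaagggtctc

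The match began at base 4 of the transcript in Yars and base 7 in Iars, and 31 and 16 bases before the start in Gars and Tars. In Yars it reads on the strand of the gene, and in the others on the opposite strand. Of the 36 synthetase genes 27 had a promoter in the table. The element was present in 5 of these 27, beside 4.50% of all 27025 genes with a promoter. They were Yars, Gars, Iars, Tars and Aars, of which Aars has no expression value here. Among the 16990 measured genes with a promoter the share was 3.90%. All 5 were among the 13 cytosolic genes, and 0 of the 14 mitochondrial genes had a match. The Eprs window holds no match, while Eprs stood 0.86 above vehicle, and Tars holds one with a difference of 0.40. Wars, Cars, Nars, Lars and Pars2 were not in the table. A match is a description of letters and not a binding site.

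Among the remaining cytosolic genes the differences at 10 µM were smaller. Farsb and Farsa encode the beta and alpha subunits of the phenylalanine enzyme, which works as a tetramer of both. Farsb stood at 9.68 at 10 µM and 9.51 at 20 µM, against 9.20 and 9.28 in vehicle. Farsa stood at 7.78 at 10 µM and 7.42 at 20 µM, against 7.73 and 7.73 in vehicle. Farsb thus lay above both vehicle arrays at both doses, whereas Farsa differed by 0.05 at 10 µM and by -0.31 at 20 µM. Farsb had the highest (0.27) and Farsa the lowest cytosolic difference at 20 µM (limma adjusted p = 0.784 and 0.762).

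Tars (threonine), Rars (arginine) and Sars (serine, and the starting point of selenocysteine synthesis) had differences of 0.40, 0.39 and 0.37 at 10 µM, with limma adjusted p between 0.249 and 0.288. Each lay above both vehicle arrays at both doses. Tars stood at 10.54 at 10 µM and 10.21 at 20 µM, against 10.12 and 10.16 in vehicle. Rars stood at 10.95 at 10 µM and 10.75 at 20 µM, against 10.57 and 10.56 in vehicle. Sars stood at 11.44 at 10 µM and 11.17 at 20 µM, against 11.13 and 11.01 in vehicle. Mars1 (methionine) differed by 0.15 at 10 µM and 0.14 at 20 µM, and Hars (histidine) by 0.15 and 0.11.

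The other 3 cytosolic genes lay below both vehicle arrays at 10 µM. Qars, the glutamine enzyme, stood at 10.14 at 10 µM and 10.58 at 20 µM, against 10.58 and 10.44 in vehicle, a difference of -0.38 ± 0.15 at 10 µM (limma adjusted p = 0.293). Vars, for valine, stood at 9.07 at 10 µM and 9.21 at 20 µM, against 9.23 and 9.29 in vehicle. Kars, the lysine enzyme, which like Gars supplies both compartments from 1 gene, stood at 10.82 at 10 µM and 11.00 at 20 µM, against 10.83 and 10.86 in vehicle. Its difference was -0.02 at 10 µM and 0.16 at 20 µM.

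On the mitochondrial side Pars2, for proline, stood at 5.10 at 10 µM and 5.99 at 20 µM, against 6.04 and 6.02 in vehicle. Its difference at 10 µM was -0.94 ± 0.14, a 1.91-fold decrease (limma adjusted p = 0.0478), and its value there was close to the overall median of 5.04. Iars2, for isoleucine, stood at 7.19 at 10 µM and 7.91 at 20 µM, against 7.81 and 7.97 in vehicle. Mars2, for methionine, stood at 6.34 at 10 µM and 6.73 at 20 µM, against 7.00 and 6.78 in vehicle. At 10 µM Iars2 differed by -0.70 and Mars2 by -0.55 (limma adjusted p = 0.105 and 0.178). For Mars2 the 20 µM array also lay just below both vehicle arrays.

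Hars2, for histidine, stood at 7.10 at 10 µM and 7.40 at 20 µM, against 7.60 and 7.40 in vehicle. It neighbours Hars on chromosome 18 in the RefSeq gene table; Hars stood at 9.77 at 10 µM and 9.74 at 20 µM, against 9.56 and 9.68 in vehicle. At 10 µM the neighbours thus differed from vehicle in opposite directions, by -0.41 for Hars2 and 0.15 for Hars, neither past the threshold (limma adjusted p = 0.284 and 0.691). Vars2, Ears2, Cars2, Yars2 and Aars2, for valine, glutamate, cysteine, tyrosine and alanine, all lay below both vehicle arrays at 10 µM, with differences between -0.33 and -0.14. Ears2 also supplies the misacylated tRNA from which mitochondria make their glutamine tRNA.

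The other 7 mitochondrial genes were between 0.00 and 0.31 above vehicle at 10 µM. Tars2, for threonine, led them at 9.55 at 10 µM and 9.44 at 20 µM, against 9.19 and 9.30 in vehicle. It and Fars2, for phenylalanine, were the mitochondrial genes above both vehicle arrays at both doses. Wars2, the counterpart of Wars, stood at 7.13 at 10 µM and 6.76 at 20 µM, against 7.02 and 6.92 in vehicle, so its nimodipine arrays lay on either side of vehicle. Rars2 and Sars2 differed by 0.14 and 0.11, less than the gap between their vehicle arrays (0.28 and -0.30 for vehicle 2 minus vehicle 1). Lars2 and Nars2 differed by 0.01 and 0.00; Nars2 had 2 probe sets, and the dimmer one, not used, differed by -0.11.

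Enzymes for the same amino acid were then set side by side. The measured genes formed 16 pairs over 15 amino acids, with Eprs paired to both Ears2 and Pars2 and Fars2 to both Farsa and Farsb. At 10 µM the cytosolic difference exceeded the mitochondrial one in 15 of 16 pairs, with a median gap of 0.65. The exception was Farsa with Fars2, at -0.09. In the same 15 pairs the cytosolic gene also had the higher vehicle mean, as with Eprs (10.36) and Pars2 (6.03). Farsa (7.73) lay below Fars2 (7.91) in this too. Pairs thus differ in compartment and in level at once, and the part of each in the gap was not tested. In 7 pairs the cytosolic gene lay above vehicle and the mitochondrial gene below it. The gap was 1.80 for proline, 1.44 for isoleucine, 1.36 for tryptophan, 1.17 for glutamate, 1.15 for tyrosine and 1.09 for cysteine, and 0.14 and 0.09 for valine and threonine. At 20 µM the cytosolic difference was the greater in 12 of 16 pairs with a median gap of 0.10, and in vehicle 2 minus vehicle 1 in 10 of 16 with a median gap of 0.05. Pairs that share Eprs or Fars2 are not independent.

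**Figure D3:**
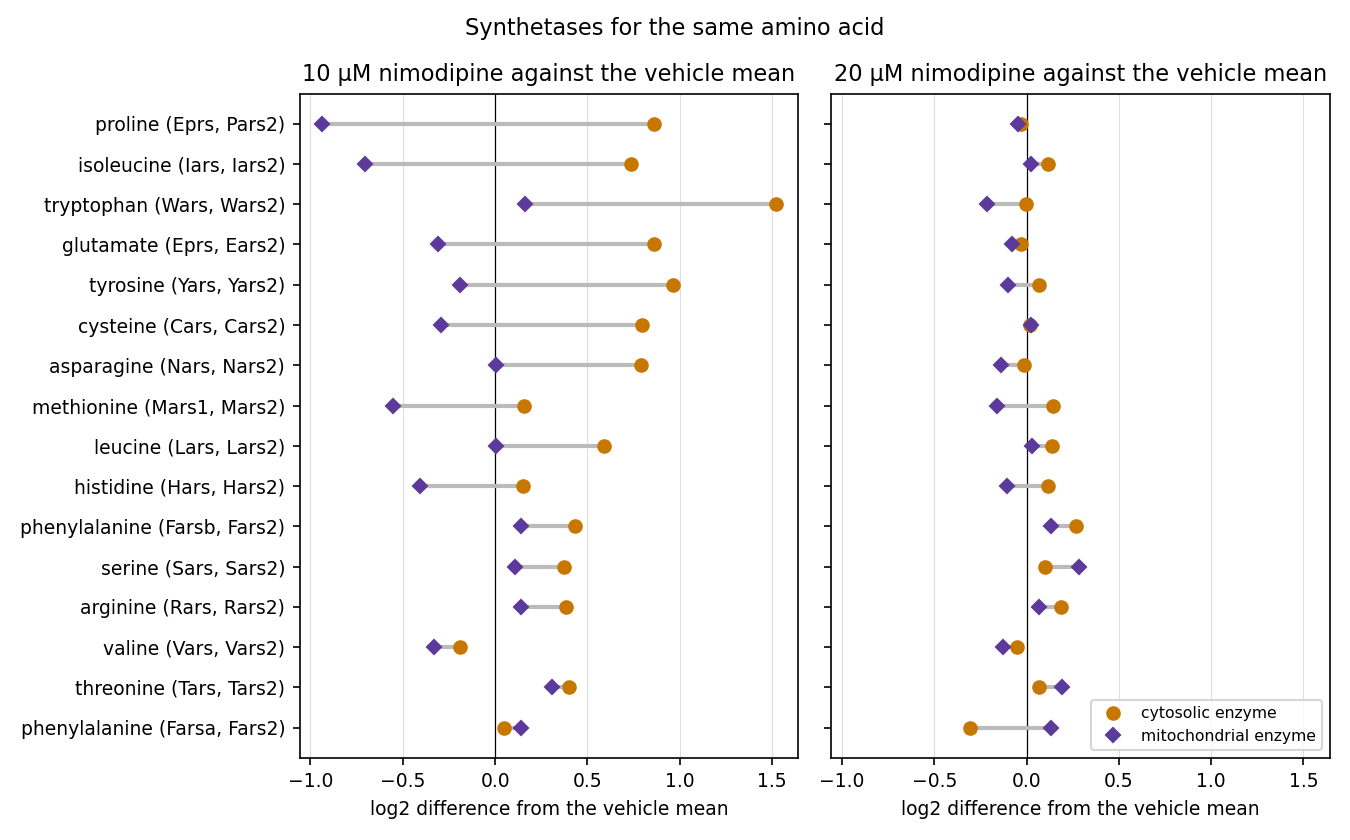
Log2 difference from the vehicle mean (horizontal axis) for the cytosolic (circle) and mitochondrial (diamond) enzyme of each of 16 pairs, at 10 µM on the left and 20 µM on the right. At 10 µM the circle lies to the right of the diamond in 15 pairs, by up to 1.80 for proline, and at 20 µM the marks lie within 0.44 of each other in every pair.

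Synthetases fall into 2 unrelated structural families, catalytic classes I and II. The 9 cytosolic genes of class I had a median of 0.59 at 10 µM and the 8 of class II one of 0.39, with 7 genes higher in each. Eprs, which joins an enzyme of each class, was left out of this split. Among the mitochondrial genes, the 9 of class I had a median of -0.30 with 3 higher, and the 7 of class II a median of 0.00 with 4 higher. Several cytosolic synthetases sit in a multi-synthetase complex. Its 7 measured enzymes (Eprs, Iars, Lars, Mars1, Qars, Rars and Kars) had a median of 0.39 at 10 µM, with 5 higher, and the 11 enzymes outside it had a median of 0.43, with 10 higher. The measured non-enzyme scaffold genes of the complex, Aimp1 and Eef1e1, differed by -0.09 and 0.02.

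At 20 µM the classes stood near vehicle. The cytosolic median was 0.07, with 12 of 18 higher, and the mitochondrial median was -0.01, with 8 of 16 higher, beside 49.3% of all genes higher and 50.7% lower. The 20 µM value lay above both vehicle arrays for 10 cytosolic and 4 mitochondrial genes, beside 34.5% of all genes, and below both for 3 and 8, beside 35.1%. limma called 0 of 34 synthetases and 0 of all genes (0% called) at 20 µM; at an unadjusted p under 0.05 there were 0 of 34, beside 6.39% of all genes. The differences at 20 µM ran from -0.31 (Farsa) to 0.28 (Sars2). The contrast of the doses, 20 µM minus 10 µM, tests their difference itself. It was -1.52 ± 0.18 for Wars (limma adjusted p = 0.0482), the only synthetase called, beside 0.316% of all genes called in either direction and 0.144% called lower; at an unadjusted p under 0.05 stood 11 of 34, beside 13.7%. For Yars, Eprs and Pars2 it was -0.90, -0.89 and 0.89, with limma adjusted p of 0.111, 0.109 and 0.108, which does not show that the doses act alike on them. With dim probe sets left out, 6 synthetases were called in this contrast, beside 5.78% of the genes then tested. The comparisons of each dose with vehicle share the same vehicle arrays.

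**Figure D4:**
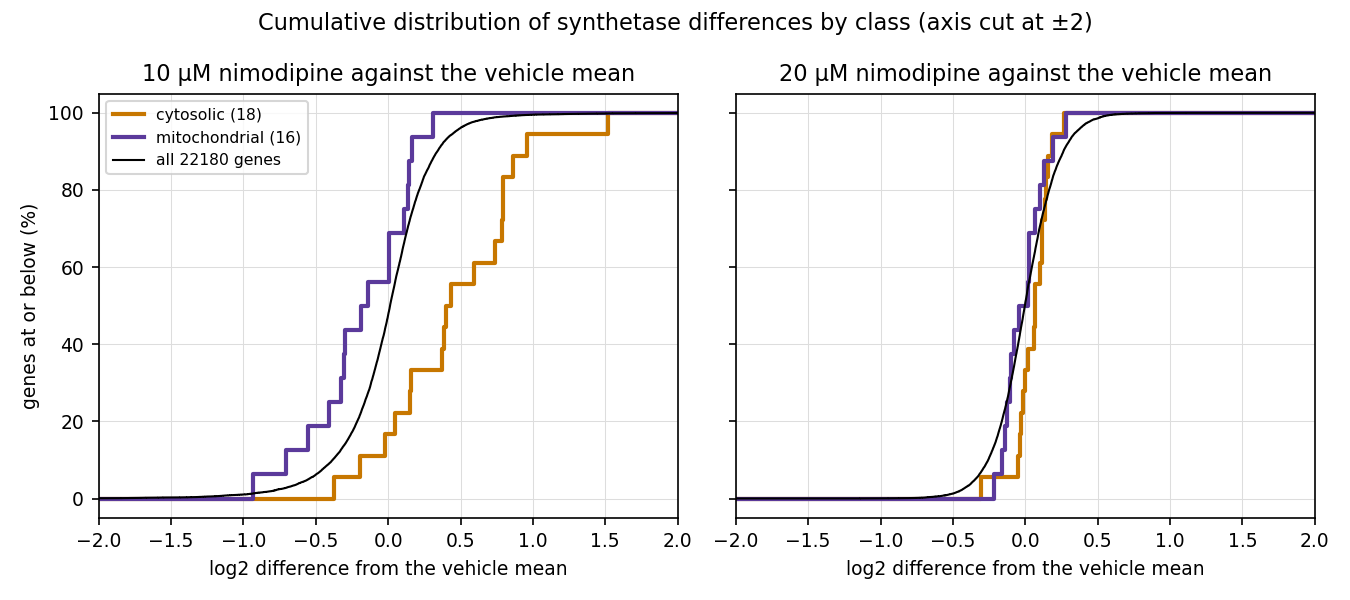
Cumulative share of genes (vertical axis, percent) at or below a given log2 difference from the vehicle mean (horizontal axis, cut at 2 each way) for 18 cytosolic synthetases, 16 mitochondrial synthetases and all 22180 genes, at 10 µM on the left and 20 µM on the right. At 10 µM the cytosolic curve, with a median of 0.42, lies mostly to the right of that of all genes and the mitochondrial curve, with a median of -0.16, mostly to its left, while at 20 µM the medians are 0.07 and -0.01.

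Both nimodipine arrays were also taken as 1 group against both vehicle arrays, a fit in which the gap between doses counts as spread. limma then called 0 of 34 synthetases and 0 of all genes (0%), with a smallest adjusted p of 0.792 in each class. At an unadjusted p under 0.05 stood 1 synthetase, Farsb (0.35 ± 0.13), beside 5.37% of all genes. Wars differed by 0.76 ± 0.46, Yars by 0.51 ± 0.29 and Pars2 by -0.49 ± 0.28 (SE, 2 arrays each). The lower nimodipine value exceeded the higher vehicle value for 9 cytosolic and 2 mitochondrial genes, beside 19.2% of all genes, and both nimodipine values were under the lower vehicle value for 1 cytosolic and 6 mitochondrial genes, beside 18.2%. The cytosolic genes on the high side were Yars, Iars, Lars, Farsb, Tars, Rars, Sars, Mars1 and Hars, and the one on the low side was Vars. The mitochondrial genes on the low side were Yars2, Ears2, Vars2, Hars2, Mars2 and Pars2.

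Other genes of translation were set beside the synthetases. The counts for these lists stand beside 52.4% of all genes higher and 1.59% called in either direction at 10 µM. The 17 measured cytosolic initiation and elongation factors had a median of 0.03 at 10 µM (10 higher, 0 called), and the 64 cytosolic ribosomal proteins also one of 0.03 (37 higher, 0 called). Eif4ebp1, an inhibitor of cap-dependent initiation and a known ATF4 target, stood apart among the factors at 11.29 at 10 µM and 10.53 at 20 µM, against 10.51 and 10.44 in vehicle (0.81 at 10 µM, limma adjusted p = 0.0661). Eif3c and the release factor gene Gspt1 differed by 0.54 and -0.29 at 10 µM, and Eif5a by -0.02 at 10 µM and -0.45 at 20 µM. Of the cytosolic ribosomal proteins, Rpl17 and Rplp2 lay below the overall median of 5.04 on every array. Rps23 had a gap of -0.61 between its vehicle arrays (vehicle 2 minus vehicle 1). Rps23, Rpl34, Rpl17 and Rplp2 had differences of 0.53, 0.89, -0.20 and 0.29 at 10 µM. At 20 µM these were 0.88, 0.28, -0.71 and 0.45, larger than at 10 µM for all but Rpl34, with limma adjusted p between 0.762 and 0.801. Among 10 genes of eIF2, its exchange factor eIF2B and the eIF2 kinases, the median was -0.11. Eif2ak2, the kinase PKR that senses double-stranded RNA, fell at 10 µM: it stood at 7.04 at 10 µM and 7.90 at 20 µM, against 8.00 and 7.98 in vehicle (-0.95 ± 0.14, limma adjusted p = 0.0470). It was the only gene of the list called, 1 of 10 beside 1.08% of all genes called lower. Eif2ak4, the kinase GCN2 that senses uncharged tRNA, differed by -0.27 at 10 µM and -0.20 at 20 µM. Eif2s2, the beta subunit of eIF2, and Eif2b1, the alpha subunit of eIF2B, differed by 0.52 and -0.26 at 10 µM.

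The 9 mitochondrial translation factors had a median of -0.19 at 10 µM (4 higher, 0 called), beside -0.16 for the mitochondrial synthetases. Mtrf1, Gfm2, Mtif2 and Gfm1 among them differed by -0.46, 0.38, -0.25 and -0.19. The 71 mitochondrial ribosomal proteins had a median of 0.10, with 50 higher (beside 52.4% of all genes) and 0 called (beside 1.59%). Mrpl13, a protein of the large mitochondrial subunit, stood at 8.50 at 10 µM and 7.52 at 20 µM, against 7.48 and 7.73 in vehicle (0.90 at 10 µM, limma adjusted p = 0.0735). Mrpl58, Mrps35 and Mrps14 differed by 0.58, -0.63 and -0.43. The vehicle arrays of Mrps14 lay further apart than that (0.73 for vehicle 2 minus vehicle 1). Mrps14 was below the overall median of 5.04 on both nimodipine arrays (4.49 and 4.33) and on vehicle array 1 (4.56), and above it on vehicle array 2 (5.28). Genes of tRNA maturation, modification and export (20 measured) had a median of -0.18, with 7 higher and 0 called; Ctu1, of the enzyme that thiolates the wobble base, differed by -0.57. Adat1, Trmt6 and Pus7, which modify tRNA bases, differed by -0.41, -0.42 and -0.38. Among 4 further genes of mitochondrial tRNA charging, Gatc, a subunit of the amidotransferase that makes glutamine tRNA from the product of Ears2, stood at 10.89 at 10 µM and 9.95 at 20 µM, against 10.10 and 10.13 in vehicle (0.77 at 10 µM, limma adjusted p = 0.0733). Mtfmt, which formylates the initiator methionine tRNA downstream of Mars2, differed by -0.44, and Gatb and Qrsl1, the other amidotransferase subunits, by 0.19 and -0.06. Of the genes that clear mischarged tRNA, Prorsd1 differed by 0.27, Dtd1 by -0.03 and Dtd2 by -0.17.

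**Figure D5:**
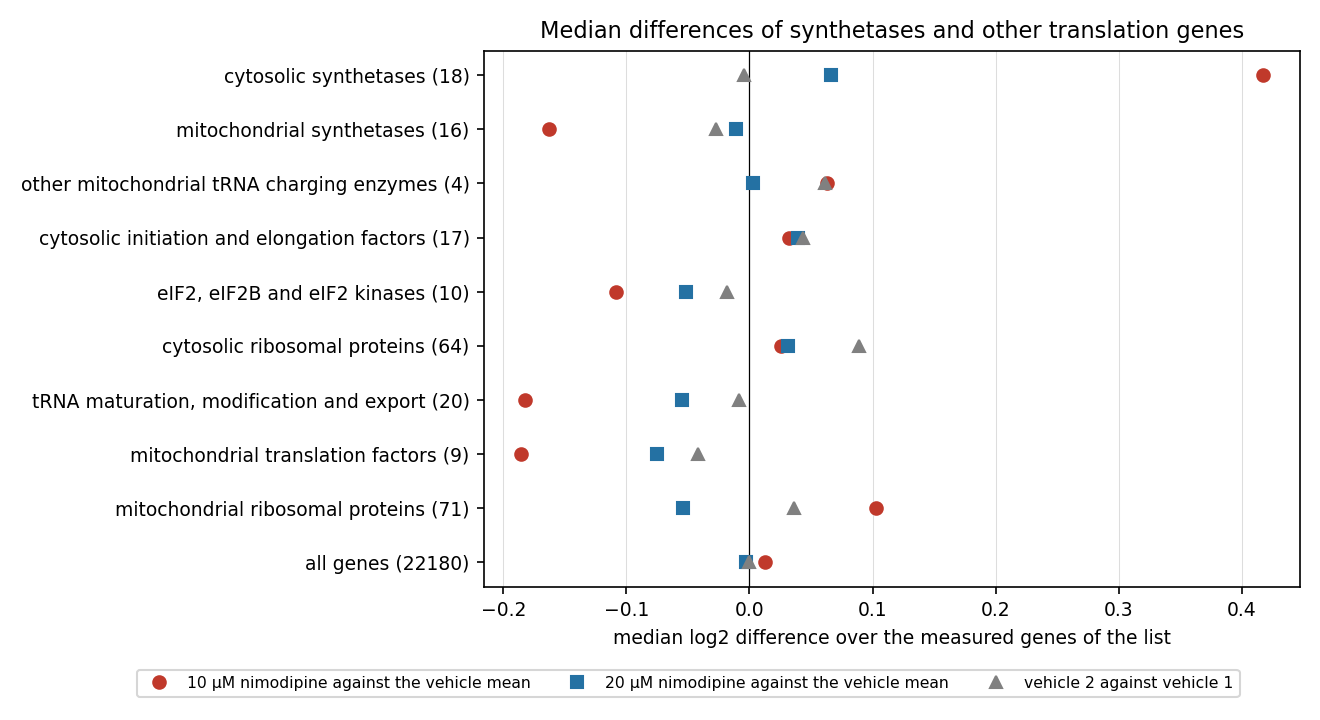
Median log2 difference (horizontal axis) of each list, with its number of measured genes in brackets, for the 10 µM array and the 20 µM array against the vehicle mean and for vehicle 2 against vehicle 1; lists of fewer than 4 measured genes and the stress response factors are not drawn. The cytosolic synthetases have the highest median at 10 µM (0.42) of the lists drawn, and the mitochondrial synthetases (-0.16), the mitochondrial translation factors (-0.19) and the tRNA maturation genes (-0.18) the lowest.

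Of 6 factors of the integrated stress response, chosen with their values known, 5 were called higher at 10 µM, beside 0.509% of all genes. Atf4 and its target Asns, the asparagine synthetase that makes the free amino acid and is not a tRNA enzyme, were 1.48 and 1.51 above vehicle there (limma adjusted p = 0.0197 and 0.0185) and 0.02 and 0.14 above it at 20 µM. Ddit3 and Trib3, both induced downstream of ATF4, differed by 3.36 and 3.25 at 10 µM, and Chac1, which degrades glutathione, by 1.01 (limma adjusted p = 0.00286, 0.00286 and 0.0470). Sesn2, a leucine-binding inhibitor of mTORC1 signalling, differed by 0.14 and was not called. At 20 µM Ddit3, Trib3, Chac1 and Sesn2 differed from vehicle by 0.13, -0.16, 0.48 and -0.07.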

How the data were processed

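RNA of 4 samples was measured on 1-colour Affymetrix arrays. The authors deposited 1 log2 value for each probe set and array, by RMA in Affymetrix Expression Console (version 1.2.1.20), per the submitters' processing notes. RMA corrects background, equalises the distributions of the arrays and summarises probes, which hides any change common to most genes. Medians per array were 5.02 to 5.06. Precision is limited by having 4 arrays. Of 41345 probe sets, 23521 had exactly 1 symbol in the platform annotation, 1814 had several and 16010 were not listed. The probe set with the highest mean over the arrays stood for a gene, which left 22180 genes.

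From these values limma 3.58.1 (R 4.3.3; lmFit, eBayes) gave nimodipine against vehicle (2 arrays each) and, in a fit of 3 groups, each dose against vehicle and the doses against each other, with Benjamini-Hochberg adjustment over all genes and a threshold of 0.05. In simulated data for 10 µM against vehicle, with 22180 genes of which 200 changed, 0% of changes of 1 and 99.5% of changes of 2 were recovered. For nimodipine against vehicle, the same change was put on both nimodipine arrays, with no gap between the doses. There 79% of changes of 1 and 100% of changes of 2 were recovered. These shares do not hold for a change on the 10 µM array alone, such as that of Wars. On the measured arrays, 10 µM against vehicle gave 353 called genes, among them Yars at 0.96 and Pars2 at -0.94. Why these calls differ from the 0% recovered at a change of 1 was not tested. Members and gene lists were chosen with earlier results of these data known, so no list test is given. All members are named, and of each list up to 4 genes with the largest mean difference of nimodipine from vehicle, with all 6 stress response factors. Results were recomputed without dim probe sets, with probe sets averaged per gene, after equalising array medians or applying cyclic loess, with a mean-variance trend in eBayes, with dose as a number, without each array in turn and, for the promoter element, with GATGCAA. Promoter sequences are RefSeq's (GRCm38.p6).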

Additional observations from a re-analysis of the deposited data

Results flagged for a closer look

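Wars was singled out because its differences from vehicle at the 2 doses differed by a test of the doses against each other. The value at 20 µM minus that at 10 µM was -1.52 on the log2 scale (limma adjusted p = 0.0482, 1 array at each dose). Under 5 other settings that allow a test the adjusted p lay between 0.00327 and 0.0423.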

How the results depend on the processing

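The calls of Wars, Yars and Pars2 at 10 µM held under 5 alternatives that could change them, with adjusted p between 0.00111 and 0.0185 for Wars, 0.00484 and 0.043 for Yars, and 0.00976 and 0.043 for Pars2. Leaving out the 20 µM array cannot change these values, since a lone array adds no residual df. How many further genes were called depended on the setting. At 10 µM limma called 353 genes and 3 synthetases; without dim probe sets it called 1282 and 10, with a mean-variance trend 1175 and 10, with equal array medians 654 and 5, and with cyclic loess 558 and 5. Eprs and Gars were added under all 4 of these, and Cars, Iars, Iars2, Lars and Nars under the first 2. Of the genes tested in each setting, the shares called were 10.0% (of 12764 genes), 5.30%, 2.95% and 2.52%. For 20 µM against 10 µM the counts were 70 genes (0.316%) and 1 synthetase. They were 738 genes (5.78% of the 12764 then tested) and 6 synthetases without dim probe sets. With a trend they were 731 (3.3%) and 5, with equal medians 272 (1.23%) and 1, and with loess 243 (1.1%) and 1.

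With equal array medians, the class medians were 0.38 and -0.20 (cytosolic and mitochondrial) at 10 µM, -0.040 (mitochondrial) at 20 µM, and 0.28 and -0.13 for both doses against vehicle. Loess gave mitochondrial medians of -0.13 at 10 µM and -0.065 for both doses, and 0.40 for the gap between the classes. With dose as a number, per 20 µM, the medians were 0.15 and -0.12 and the gap 0.27. Leaving out 1 array at a time, nimodipine against vehicle called 0 to 353 genes and 0 to 3 synthetases, all of the calls without the 20 µM array. The medians then ranged from 0.066 to 0.42 (cytosolic) and from -0.16 to -0.011 (mitochondrial) and the gap from 0.077 to 0.58, the small values being those without the 10 µM array. At 10 µM the ranges were 0.41 to 0.45, -0.17 to -0.15 and, for the gap, 0.58 to 0.60. At 20 µM the cytosolic median ranged from 0.031 to 0.11, the mitochondrial one from -0.075 to -0.011 and the gap from 0.077 to 0.15. Without a vehicle array no residual df was left, so single doses then had values and no test. GATGCAA in place of the 9-letter element was found in 4 synthetase promoters (Gars lacks it). This stands beside 2.89% of all genes with a promoter and 2.80% of the measured ones. No paired analysis was possible because each dose had a single array with no replicate number that ties it to a vehicle array. The cause of the differences between settings was not tested.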
